A study of Mus musculus with 17 samples.

Results

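Colonic lymphoid tissue inducer (LTi) cells of Pdcd1hu/- mice, titled KO, were compared with those of Pdcd1hu/+ mice, titled WT. The comparison took in 8 of the 17 samples of the series, chosen by their titles and not by any measured value. Each genotype had 4 RNA libraries, 2 of PD-1high cells and 2 of PD-1neg cells. Both genotypes carried the allele written hu at Pdcd1, the gene of the receptor PD-1, and differed in the other allele, written + or -. Libraries of both genotypes were sorted on human PD-1 at the surface, and those titled KO include PD-1high cells. The labels do not state what the hu allele encodes or which exons the - allele lacks. All mice were age-matched C57BL/6 adults that drank 3% dextran sulfate sodium (DSS), which injures the colon epithelium, for 6 days and then had 1 day of recovery. Lamina propria cells were sorted as positive for CCR6, c-Kit and CD127 and negative for KLRG-1 and lineage markers, and then as high or negative for human PD-1. The labels do not say how many mice gave a library or whether both gates came from the same mice, so the 4 libraries of a genotype may stand for as few as 2 mice. The p-values then measure only the spread between these libraries, which may be technical.

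PD-1 is an inhibitory receptor of activated lymphocytes. Its ligands are PD-L1, encoded by Cd274, and PD-L2, encoded by Pdcd1lg2, and its cytoplasmic tail recruits the phosphatase SHP-2, encoded by Ptpn11, which dampens PI3K-AKT and related signals. LTi cells are innate lymphoid cells. They organise lymphoid tissue through lymphotoxin and, in the adult gut, respond to IL-23 by making IL-22, which acts on the epithelium. The series' design text asks which genes distinguish PD-1high and PD-1neg LTi cells of both genotypes.

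Total counts per library ran from 16479396 to 22290026, so that 3 counts corresponded to between 0.135 and 0.182 CPM (counts scaled to a library of 1000000), for counting error only. Replicates of 1 genotype and gate were far apart: the correlation of their log2 values ranged from 0.717 to 0.792, and over all pairs of libraries the median was 0.775 within a genotype and 0.778 between genotypes. Immunoglobulin genes took between 0.0265% and 8.69% of counts, and libraries high in them occurred in every group. All 8 libraries held LTi transcripts such as Kit, Il7r and Ccr6, and all held Y-linked transcripts. RNA of other cell types was present as well, and its level in each library is given below. In bulk samples, fewer cells of a type and less RNA per cell cannot be told apart.

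No gene passed the threshold between the genotypes. Of 18862 genes tested with edgeR's quasi-likelihood test, with the sort gate as a covariate, 0 (0%) had an adjusted p under 0.05. The smallest adjusted p was 0.46, for Lum, and the next was 0.988. At an unadjusted p under 0.05, 531 genes (2.82%) were higher in Pdcd1hu/- cells and 387 (2.05%) were lower, together 918 (4.87%). Limma-voom also called 0. DESeq2 called 19 genes higher (0.117% of the 16302 it could adjust) and 42 lower (0.258%). Of these 61 genes, 54 had no count in at least 1 library and 20 had none in any library of 1 genotype. Only 6 had a mean of at least 10 CPM and a count in every library: Rfc5, which was higher, and Socs2, Lilr4b, Ccrl2, C1qa and Bgn, which were lower (Bgn was chosen after its values were seen).

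The spread set what could be seen. Among 9114 genes with a mean of at least 10 CPM, the median half-width of the 95% interval of the log2 fold change was 1.06, and for 2272 genes (24.9%) the whole interval lay within 1 of 0. The genotypes' libraries did not overlap for 279 of all genes tested that were higher in Pdcd1hu/- cells (1.48%) and for 157 that were lower (0.832%), and among the 9114 genes for 132 (1.45%) and 72 (0.79%). Fold changes are given as log2 of Pdcd1hu/- over Pdcd1hu/+ with their standard error (SE) and 95% interval over 4 libraries of each genotype, and "p under 0.05" means edgeR's p before adjustment. In the gene lists, members above 0 are to be read against the 52% of all genes whose fitted fold change lay above 0, and members at p under 0.05 against the 2.82% of all genes that were higher and the 2.05% that were lower. Many of these list counts changed when 1 library was left out, and the range over the 8 libraries left out in turn is given beside them. Library values are CPM scaled by TMM, in the order PD-1high replicates 1 and 2 and PD-1neg replicates 1 and 2.

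Pdcd1 itself (chr1:94038305-94052553 on mm10, minus strand) was at 248, 390.0, 8.02 and 25.4 CPM in the Pdcd1hu/+ libraries. In Pdcd1hu/- it was at 527, 540.0, 81.9 and 188 CPM. Within each gate both Pdcd1hu/- libraries lay above both Pdcd1hu/+ libraries, a separation that 548 of all genes (2.91%) showed upward. The log2 fold change was 1.88 ± 0.62 (SE, 95% interval 0.46 to 3.29). It was 0.74 in PD-1high cells and 3.02 in PD-1neg cells, a difference between the gates, as PD-1high minus PD-1neg, of -2.28 ± 0.78 (SE, edgeR's adjusted p = 1). Because the structure of both alleles is not stated, reads over the whole gene neither check the genotype nor measure the surface receptor. Of the 187 other genes within 5 Mb, 68 were tested and 2 had p under 0.05, so 2.94% against 4.87% of all genes.

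The ligand and signalling genes of the PD-1 pathway showed no common direction. Of 14 listed genes, 7 lay above 0 and 7 below, with Pdcd1 the only one at p under 0.05, and the median was -0.00086 against 0.03 for all genes. Leaving out 1 library gave 5 to 8 above 0 and medians from -0.29 to 0.24. Cd274 (PD-L1) was at 80.2, 81.3, 61.8 and 68.4 CPM in Pdcd1hu/+ and 36.95, 83.8, 48.8 and 29.003 in Pdcd1hu/-. In 3 of the 4 Pdcd1hu/- libraries it lay below every Pdcd1hu/+ library, while PD-1high replicate 2 lay above them all, and the log2 fold change was -0.58 ± 0.35 (SE, 95% interval -1.34 to 0.18). Akt1, the kinase downstream of PI3K, was at 77.6, 122, 65.9 and 56.9 CPM in Pdcd1hu/+ and 112, 160.5, 106 and 82.4 in Pdcd1hu/-. Its libraries overlapped, and the log2 fold change was 0.53 ± 0.28 (SE, 95% interval -0.07 to 1.14). Ptpn11 (SHP-2) ranged from 10.04 to 35.4 CPM in Pdcd1hu/+ and from 25.1 to 40.0 in Pdcd1hu/-, a log2 fold change of 0.17 ± 0.51 (SE, 95% interval -0.95 to 1.29). Among 16 other checkpoint receptors, 4 lay above 0 and 12 below, none at p under 0.05, with a median of -0.27, and leaving out 1 library gave 2 to 7 above 0 and medians from -0.46 to -0.06.

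**Figure D1:**
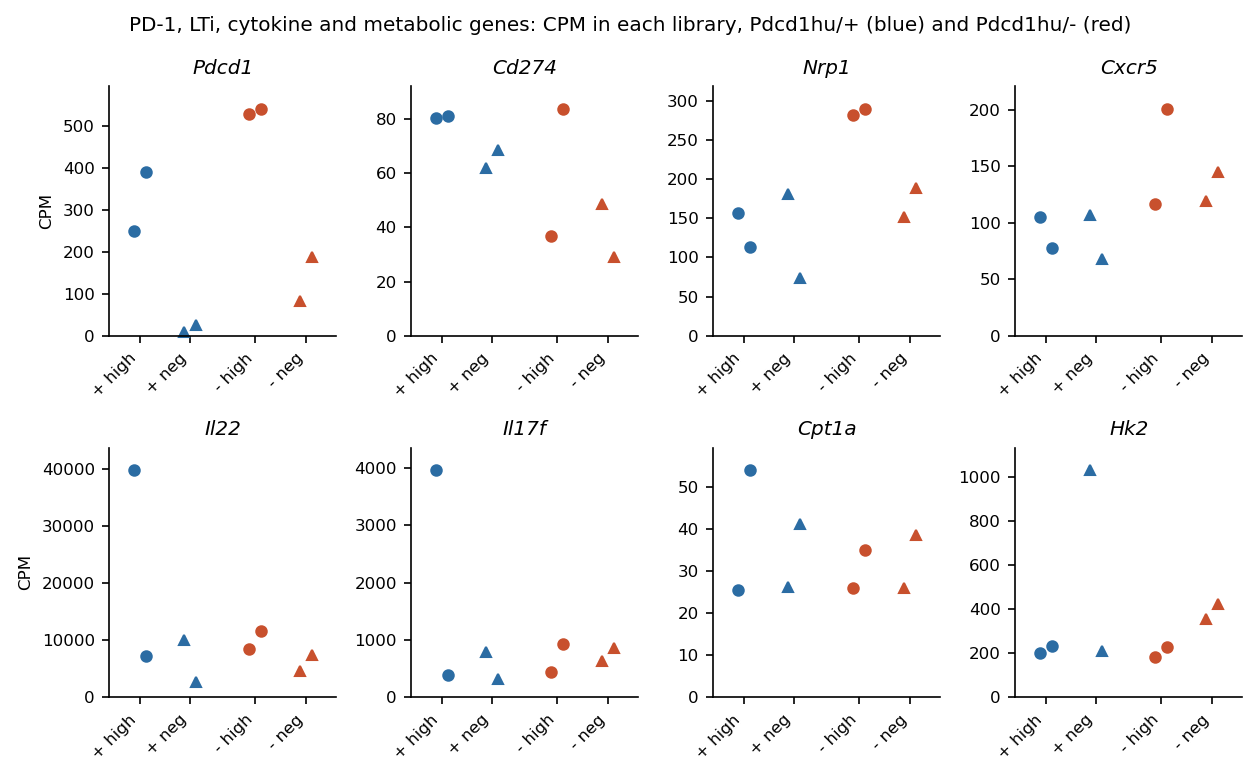
CPM (y axis, from 0) of 8 genes of the PD-1 pathway, LTi identity, cytokines and metabolism in each library, with Pdcd1hu/+ in blue (+), Pdcd1hu/- in red (-), circles for PD-1high and triangles for PD-1neg cells. Pdcd1 was higher in both Pdcd1hu/- libraries of each gate, Cxcr5 did not overlap between genotypes, and Il22 and Il17f were highest in 1 Pdcd1hu/+ PD-1high library.

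Socs2 stood out among the lower genes with a level well above 0. SOCS2 is a feedback inhibitor of cytokine receptors that signal through JAK and STAT. Socs2 (chr10:95385362-95417180, minus strand) was at 80.2, 68.7, 74.5 and 73.8 CPM in Pdcd1hu/+ and 24.3, 9.92, 30.6 and 17.1 in Pdcd1hu/-. The 4 Pdcd1hu/+ libraries lay within a narrow range and all 4 Pdcd1hu/- libraries lay below them, with a log2 fold change of -1.88 ± 0.40 (SE, 95% interval -2.75 to -1.01). The value was -2.12 in PD-1high and -1.64 in PD-1neg cells. Socs2 was chosen both for a small p and for a wide gap between genotypes, so its lack of overlap was fixed by the choice. DESeq2 called it at an adjusted p of 0.00559, whereas edgeR's adjusted p was 0.988.

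Socs3, another inhibitor of the family and a brake on STAT3, was at 69.2, 110.0, 94.2 and 163 CPM in Pdcd1hu/+ and 65.9, 47.2, 49.7 and 88.4 in Pdcd1hu/-. Within each gate both Pdcd1hu/- libraries lay below both Pdcd1hu/+ libraries, a separation that 314 of all genes (1.66%) showed downward, and the log2 fold change was -0.78 ± 0.33 (SE, 95% interval -1.49 to -0.07). In the list of 19 STAT and SOCS genes these 2 were the only ones at p under 0.05, both lower, while 10 of 19 lay above 0 and the median was 0.01 (6 to 13 above 0 and medians from -0.05 to 0.14 leaving out 1 library). Other genes of the list, picked after their values were seen, had overlapping libraries. Socs1 ranged from 15.9 to 282 CPM in Pdcd1hu/+ and from 60.9 to 186 in Pdcd1hu/-, Cish had a log2 fold change of 0.23 ± 0.34 (SE, 95% interval -0.51 to 0.98) and Pim1 one of -0.19 ± 0.25 (SE, 95% interval -0.73 to 0.35). Jak2, a kinase of these receptors, had a log2 fold change of -0.67 ± 0.34 (SE, 95% interval -1.41 to 0.07) and overlapping libraries.

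STAT proteins bind paired half-sites written TTCNNNGAA, which read the same on both strands. In the 250 bases before the start of each gene in the RefSeq promoter table (GRCm38.p6), these letters occurred for 8.13% of 27025 genes, and for 1 of the 16 genes of the STAT and SOCS list that the table holds. That gene was Socs3, where the match begins 154 bases before the RefSeq start. The annotation used for the counts starts Socs3 further upstream (chr11:117966079-117970047, minus strand), so by that annotation the stretch lies inside the gene. It is shown because Socs3 was the gene lower beside Socs2, with the match in capitals (chr11:117969502-117969530, minus strand, read 5′ to 3′), and a match is a description and not a binding site.
Socs3: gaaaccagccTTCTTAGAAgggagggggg

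Ccrl2, an atypical receptor that binds the chemoattractant chemerin (chr9:111054486-111057519, minus strand), was at 203, 579, 281 and 295 CPM in Pdcd1hu/+ and 111, 61.1, 158 and 50.7 in Pdcd1hu/-. Every Pdcd1hu/- library lay below every Pdcd1hu/+ library, and the log2 fold change was -1.82 ± 0.43 (SE, 95% interval -2.77 to -0.88). Lilr4b, a receptor of the leukocyte immunoglobulin-like family (chr10:51480632-51486703, plus strand), was at 1023, 826, 425 and 403 CPM in Pdcd1hu/+ and 444, 516, 148 and 87.9 in Pdcd1hu/-. It was lower in both Pdcd1hu/- libraries of each gate, although PD-1high cells of Pdcd1hu/- overlapped PD-1neg cells of Pdcd1hu/+, and the log2 fold change was -1.38 ± 0.26 (SE, 95% interval -1.94 to -0.81). Its neighbour Lilrb4a, the gene of a near-identical inhibitory receptor that can share reads with it and was picked after its values were seen, was at 118, 94.5, 108 and 58.5 CPM in Pdcd1hu/+ and 81.7, 58.9, 64.3 and 54.5 in Pdcd1hu/-, a log2 fold change of -0.54 ± 0.30 (SE, 95% interval -1.19 to 0.11). How the reads were split between both copies is uncertain.

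**Figure D2:**
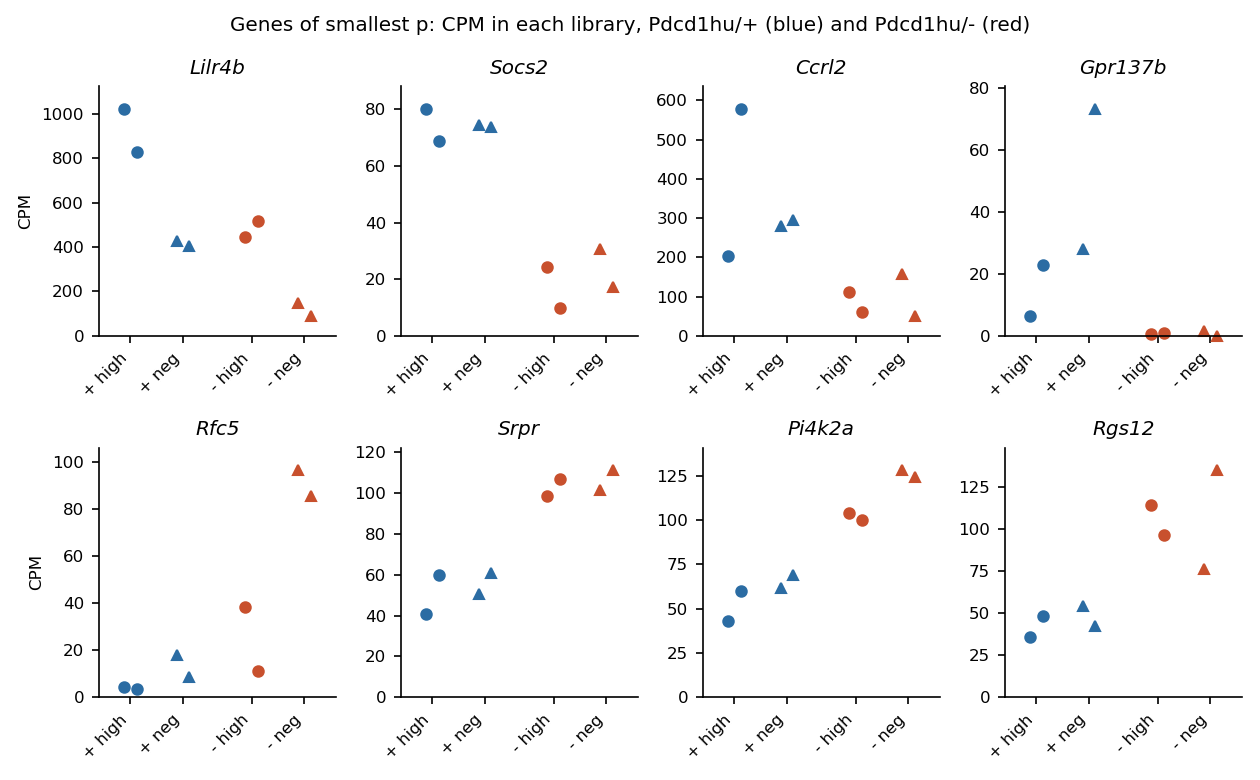
CPM (y axis, from 0) in each library of 4 genes lower and 4 genes higher in Pdcd1hu/-, drawn from the genes of smallest p, with Pdcd1hu/+ in blue (+), Pdcd1hu/- in red (-), circles for PD-1high and triangles for PD-1neg. Socs2, Ccrl2, Gpr137b, Srpr, Pi4k2a and Rgs12 did not overlap between genotypes, while Lilr4b and Rfc5 were separated only within each gate.

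Several of the lower genes were at or near 0 in Pdcd1hu/- cells and at modest levels in Pdcd1hu/+ cells. Scimp, a membrane adaptor of antigen-presenting cells, was at 17.7, 16.7, 4.80 and 3.68 CPM in Pdcd1hu/+ and at 0 in all 4 Pdcd1hu/- libraries, which makes it at least 263-fold lower against a floor of 3 counts over the group. Gpr137b, a lysosomal membrane protein, was at 6.41, 23.01, 27.9 and 73.4 CPM in Pdcd1hu/+ and 0.529, 1.04, 1.56 and 0 in Pdcd1hu/-. Nipal1, a magnesium transporter, was at 15.3, 5.40, 7.44 and 48.98 CPM in Pdcd1hu/+ and 0, 0, 0.292 and 0 in Pdcd1hu/-. For these 3 genes no library of one genotype overlapped the other. Gpr137b was also chosen for a wide gap between genotypes, so its lack of overlap was fixed by the choice. Mrvi1, a substrate of the cGMP-dependent kinase of smooth muscle, was at 17.3, 19.999, 3.36 and 12.2 CPM in Pdcd1hu/+ and 0.0587, 0.0545, 0.146 and 0 in Pdcd1hu/-. Cryab, a small heat-shock chaperone, was at 6.04, 3.66, 5.14 and 47.2 CPM in Pdcd1hu/+ and 0, 0, 0 and 0.507 in Pdcd1hu/-. The zinc finger gene Zfp791 was at 15.9, 2.96, 46.2 and 7.36 CPM in Pdcd1hu/+ and 0.0587, 0, 0.146 and 1.52 in Pdcd1hu/-. Again no library of one genotype overlapped the other. Peli2, a ubiquitin ligase of the pellino family, was at 19.6, 9.85, 12.5 and 25.3 CPM in Pdcd1hu/+ and 4.93, 1.64, 2.24 and 4.56 in Pdcd1hu/-, and Il7, the cytokine that binds CD127, at 28.6, 5.14, 9.89 and 31.04 CPM in Pdcd1hu/+ and 2.17, 0, 2.92 and 0.282 in Pdcd1hu/-. Both were chosen for a wide gap between genotypes, so their lack of overlap was fixed by the choice. The Pdcd1hu/+ libraries of these 5 genes, and of Gpr137b and Nipal1, were spread widely. In the 8 cultured small intestinal LTi libraries of the series, whose tissue and treatment differ, Scimp ranged from 0 to 0.0359 CPM, Nipal1 from 0 to 0.550, Cryab from 0 to 0.618, Gpr137b from 0 to 1.22, Zfp791 from 0 to 1.72, Mrvi1 from 0 to 2.55, Peli2 from 0.138 to 2.86 and Il7 from 0.430 to 10.5. Of the lower genes described before these, Socs2 ranged there from 10.1 to 159 CPM, Lilr4b from 60.1 to 2230 and Ccrl2 from 0.700 to 18.3.

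Markers of matrix cells and macrophages were among those of smallest p. Lum, the matrix proteoglycan lumican of fibroblasts, was at 153, 31.9, 0.0480 and 3.21 CPM in Pdcd1hu/+ and 0.117, 0.0545, 0 and 0 in Pdcd1hu/-. It held 3 counts in all in Pdcd1hu/-, a ratio of 0.000916 with an interval from 0.000189 to 0.00268 for counting error only. With the spread between libraries, edgeR's 95% interval of its log2 fold change ran from -12.9 to -6.56. Pdcd1hu/+ PD-1neg replicate 1 was as low as the Pdcd1hu/- libraries. Complement C1qa, a product of macrophages, was at 14.8, 78.7, 18.8 and 3.51 CPM in Pdcd1hu/+ and 7.34, 2.40, 0.926 and 0.225 in Pdcd1hu/-. Its libraries overlapped, and the log2 fold change was -3.75 ± 0.96 (SE, 95% interval -5.84 to -1.66). Ackr1, a chemokine-binding protein of venular endothelium, was chosen for a wide gap between genotypes. It was at 238, 3.79, 1.97 and 475 CPM in Pdcd1hu/+ and 0, 1.04, 0 and 0 in Pdcd1hu/-. These belong with markers of other cell types that were also lower. Of 21 myeloid markers tested, 2 lay above 0 and 19 below, 3 of them lower at p under 0.05, with a median of -1.77. Leaving out 1 library gave 1 to 3 above 0 and medians from -2.65 to -1.29, with 0 lower at p under 0.05 without Pdcd1hu/+ PD-1high replicate 2 and 8 without Pdcd1hu/- PD-1neg replicate 1. Their summed share of counts was 0.219, 1.34, 0.312 and 1.27% in Pdcd1hu/+ and 0.303, 0.103, 0.422 and 0.0409% in Pdcd1hu/-, so the genotypes overlapped. Of 12 stromal markers, 1 lay above 0 and 11 below, 2 lower at p under 0.05, with a median of -2.93 and shares of 0.204, 0.227, 0.0277 and 0.324% in Pdcd1hu/+ and 0.128, 0.0681, 0.0608 and 0.0324% in Pdcd1hu/-. Without Pdcd1hu/+ PD-1neg replicate 2, the stromal median was -0.75. Markers at 0 in some libraries included Itgax in Pdcd1hu/- PD-1high and PD-1neg replicates 2, Itgam, Mgp and Pdgfra in the latter, and Acta2 and Pdgfra in Pdcd1hu/+ PD-1neg replicate 1. The part of these cells in the lower genes was not tested.

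**Figure D3:**
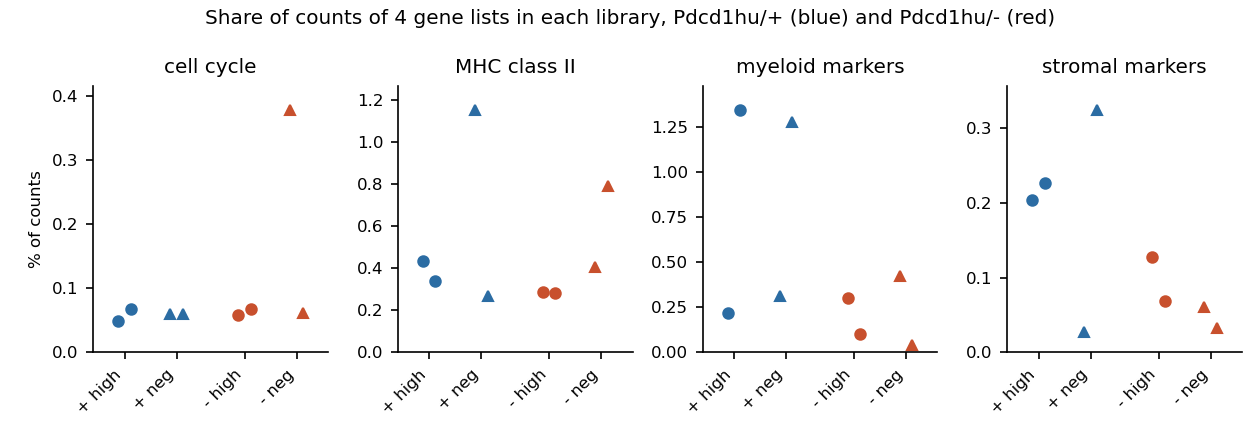
Share of counts (y axis, percent, from 0) of 4 gene lists in each library, with Pdcd1hu/+ in blue (+), Pdcd1hu/- in red (-), circles for PD-1high and triangles for PD-1neg. The cell cycle share was high in 1 Pdcd1hu/- PD-1neg library alone, and myeloid and stromal shares varied widely within Pdcd1hu/+.

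The remaining marker lists varied between libraries of both genotypes. Epithelial markers took 0.666% of counts in Pdcd1hu/+ PD-1neg replicate 2 and at most 0.0378% in the other 7 libraries, and Krt8, a keratin, was at 1.23, 0, 2.16 and 1998 CPM in Pdcd1hu/+ and 1.06, 0, 1.17 and 0.113 in Pdcd1hu/-. Of 16 epithelial markers tested, 5 lay above 0 and 11 below, 2 lower at p under 0.05, with a median of -3.05. Leaving out 1 library gave 4 to 5 above 0, medians from -3.87 to -1.05 and 0 to 3 lower at p under 0.05. Of 10 endothelial markers 0 lay above 0, but without Pdcd1hu/+ PD-1neg replicate 2, 9 of 10 lay above 0 and the median turned from -1.13 to 1.28. Their shares ran from 0.00504% to 0.205% in Pdcd1hu/+ and from 0.00990% to 0.198% in Pdcd1hu/-. Of 5 erythroid markers tested 0 lay above 0 in edgeR, with a median of -1.61, and 5 of 5 in limma-voom, with a median of 1.84. Erythroid shares reached 0.815% in Pdcd1hu/+ and 0.496% in Pdcd1hu/-. B and plasma cell markers took 7.84, 0.0439, 0.0632 and 2.61% in Pdcd1hu/+ and 0.0253, 5.76, 3.78 and 0.0435% in Pdcd1hu/-, so both genotypes had libraries high and low in them. For T cell markers, 8 of 11 lay above 0 with a median of 0.59 and 2 were higher at p under 0.05, among them Trbc2 at 159.8, 152, 176 and 167 CPM in Pdcd1hu/+ and 163, 385, 224 and 400.3 in Pdcd1hu/-. Without Pdcd1hu/- PD-1high replicate 2, 4 of the 11 lay above 0, the median was -0.86 and 0 had p under 0.05. In the lists of ILC1 and NK, ILC2, mast cell, and glia and neuron markers, no gene had p under 0.05. Of 10 ILC1 and NK markers tested, 5 lay above 0 and 5 below, with a median of 0.33. Leaving out 1 library gave 3 to 7 above 0 and medians from -0.61 to 1.26. Among them Klrb1c (NK1.1) was at 35.4, 35.6, 65.8 and 40.7 CPM in Pdcd1hu/+ and 7.40, 8.67, 33.1 and 69.2 in Pdcd1hu/-, lower in both PD-1high libraries of Pdcd1hu/- and overlapping in PD-1neg. Among Y-linked genes Eif2s3y had p under 0.05, at 174, 127, 303 and 180.4 CPM in Pdcd1hu/+ and 67.3, 98.2, 173 and 109 in Pdcd1hu/-.

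Several genes higher in Pdcd1hu/- cells separated the genotypes by about 1 on the log2 scale, and they belonged to none of the gene lists. Srpr, the receptor subunit that docks ribosomes to the endoplasmic reticulum (chr9:35200175-35247973, plus strand), was at 40.999, 60.1, 50.7 and 60.8 CPM in Pdcd1hu/+ and 98.6, 107, 102 and 111 in Pdcd1hu/-. All 4 Pdcd1hu/- libraries lay close together above all Pdcd1hu/+ libraries, a log2 fold change of 0.98 ± 0.27 (SE, 95% interval 0.38 to 1.57). Srpr was chosen both for a small p and for a wide gap between genotypes, so its lack of overlap was fixed by the choice. Pi4k2a, a phosphatidylinositol kinase of the Golgi and endosomes, was at 43.1, 60.2, 61.5 and 69.1 CPM in Pdcd1hu/+ and 104, 100.0, 128 and 124 in Pdcd1hu/-, without overlap and with a log2 fold change of 0.97 ± 0.26 (SE, 95% interval 0.40 to 1.54). Tusc3, a subunit of the N-glycosylation complex, was at 51.9, 53.5, 93.4 and 71.4 CPM in Pdcd1hu/+ and 122, 136, 122 and 131 in Pdcd1hu/-, also without overlap. Laptm4b, a lysosomal membrane protein, was at 45.3, 40.7, 99.8 and 46.5 CPM in Pdcd1hu/+ and 114, 117, 111 and 194 in Pdcd1hu/-. It too was without overlap, with a log2 fold change of 1.24 ± 0.32 (SE, 95% interval 0.54 to 1.94).

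Rgs12, a regulator of G protein signalling, was at 36.2, 48.5, 54.2 and 42.7 CPM in Pdcd1hu/+ and 114, 96.8, 76.4 and 135 in Pdcd1hu/-. The genotypes did not overlap, and the log2 fold change was 1.22 ± 0.30 (SE, 95% interval 0.56 to 1.88), with 1.32 in PD-1high and 1.13 in PD-1neg cells. Nifk, a nucleolar protein that binds Ki-67, was at 21.7, 26.8, 32.99 and 12.2 CPM in Pdcd1hu/+ and 70.4, 43.3, 84.8 and 76.8 in Pdcd1hu/-, and Gtf2h3, a subunit of the general transcription factor TFIIH, at 11.7, 3.62, 2.69 and 11.6 CPM in Pdcd1hu/+ and 24.9, 39.8, 37.7 and 38.6 in Pdcd1hu/-. Neither overlapped. Ndufaf6, an assembly factor of respiratory complex I, was at 4.54, 8.67, 10.1 and 4.79 CPM in Pdcd1hu/+ and 19.9, 36.3, 19.3 and 34.5 in Pdcd1hu/-, and Casp9, the initiator caspase of the mitochondrial death pathway, at 12.9, 10.8, 12.8 and 7.60 CPM in Pdcd1hu/+ and 20.97, 25.4, 28.8 and 20.8 in Pdcd1hu/-. Mlycd, which degrades malonyl-CoA, an inhibitor of fatty acid entry into mitochondria, was at 9.46, 5.62, 5.38 and 9.12 CPM in Pdcd1hu/+ and 48.8, 16.2, 15.4 and 15.9 in Pdcd1hu/-. These 3, like Gtf2h3, were chosen for the widest gaps between genotypes, so their lack of overlap was fixed by the choice. Of the genes with a mean of at least 10 CPM, 1.45% did not overlap upward. The 95% interval of Casp9 included 0, running from -0.15 to 2.40.

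Cell cycle genes lay above 0 as a list, and 1 library carried the difference. Of 35 listed genes 33 lay above 0, 7 of them at p under 0.05 where 2.82% of all genes were higher, and the median was 1.14. Pdcd1hu/- PD-1neg replicate 1 gave these genes 0.378% of its counts, while the other 7 libraries ranged from 0.0496% to 0.0681%. Without that library 15 of 35 lay above 0, 0 had p under 0.05 and the median was -0.15. Plk1, a mitotic kinase, was at 0, 0, 0 and 0.0585 CPM in Pdcd1hu/+ and 4.76, 1.69, 38.3 and 0.169 in Pdcd1hu/-, without overlap but with 1 count in all in Pdcd1hu/+. Aurkb, another mitotic kinase, was at 0 in Pdcd1hu/+ and at 1.12, 0, 30.3 and 0 CPM in Pdcd1hu/-, so from 2 libraries alone. Against the floor, for counting error only, it was at least 238-fold higher, or at least 9.69-fold without PD-1neg replicate 1. Cdca8, its partner in the chromosomal passenger complex, was at 0, 0, 0.0480 and 0 CPM in Pdcd1hu/+ and 0, 0, 101 and 2.65 in Pdcd1hu/-. The same library was highest for Mki67 (41.8 CPM) and Top2a (79.3 CPM), picked after their values were seen, and for Il2 (143 CPM), Slc16a1 (123 CPM) and Areg (306 CPM). Even so, the fitted log2 fold change of Mki67 lay below 0, and leaving out 1 library gave values from -2.85 to 0.27.

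Rfc5 and Mcm6, which act in DNA replication, were higher beyond that library. Rfc5, a subunit of the clamp loader that places PCNA on DNA (chr5:117378103-117389047, minus strand), was at 4.49, 3.57, 18.01 and 8.59 CPM in Pdcd1hu/+ and 38.5, 11.02, 96.4 and 85.3 in Pdcd1hu/-. Both Pdcd1hu/- libraries lay above both Pdcd1hu/+ libraries in each gate, with a log2 fold change of 2.69 ± 0.51 (SE, 95% interval 1.59 to 3.80), and DESeq2 gave an adjusted p of 0.000375. Mcm6, a subunit of the replicative helicase, was at 10.4, 18.3, 13.9 and 40.7 CPM in Pdcd1hu/+ and 23.9, 59.4, 152 and 43.03 in Pdcd1hu/-. It too was separated within each gate, with a log2 fold change of 1.68 ± 0.53 (SE, 95% interval 0.53 to 2.84), but Pdcd1hu/+ PD-1neg replicate 2 lay above Pdcd1hu/- PD-1high replicate 1. Other helicase subunits, picked after their values were seen, overlapped more. Mcm2 ranged from 16.8 to 22.5 CPM in Pdcd1hu/+ and from 17.3 to 34.6 in Pdcd1hu/-, and Mcm7 from 11.1 to 28.6 and from 8.94 to 118.

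Promoters of replication genes often hold E2F-type letters. In the 250 bases before the start, TTTCCCGC, TTTGGCGC, TTTCGCGC or TTTGGCGG, on either strand, occurred for 2.26% of 27025 genes and for 5 of the 29 cell cycle genes in the RefSeq table (17.2%). Mcm6 is shown because it was the listed gene with a count in every library that had the smallest p. Its window (chr1:128359706-128359955, GRCm38.p6, minus strand, read 5′ to 3′) held 3 matches, in capitals, of which the first pair overlap from 110 bases before the start and the last begins 47 bases before it.
Mcm6: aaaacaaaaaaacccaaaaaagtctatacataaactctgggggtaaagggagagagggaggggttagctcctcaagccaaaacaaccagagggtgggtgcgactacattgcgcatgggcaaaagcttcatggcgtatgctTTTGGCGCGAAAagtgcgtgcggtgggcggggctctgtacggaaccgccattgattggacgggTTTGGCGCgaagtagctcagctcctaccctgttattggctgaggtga

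LTi identity genes lay mostly above 0 by small amounts. Of 25 listed genes 21 lay above 0, 2 at p under 0.05 and 0 lower, with a median of 0.30, and leaving out 1 library at a time gave 17 to 23 above 0 and medians from 0.12 to 0.59. The number at p under 0.05 was 9 without Pdcd1hu/+ PD-1neg replicate 1 and 0 without any 1 of the replicates 2. Cxcr5, the receptor for the follicle chemokine CXCL13, was at 105, 78.1, 107 and 67.7 CPM in Pdcd1hu/+ and 117, 201, 119.7 and 145 in Pdcd1hu/-. The genotypes did not overlap, and the log2 fold change was 0.70 ± 0.28 (SE, 95% interval 0.08 to 1.32). Nrp1, neuropilin-1, which marks LTi cells, was at 157, 113, 181 and 74.1 CPM in Pdcd1hu/+ and 282, 289.8, 152 and 188 in Pdcd1hu/-. Both PD-1high libraries of Pdcd1hu/- lay above all others, the PD-1neg libraries overlapped, and the log2 fold change was 0.75 ± 0.31 (SE, 95% interval 0.08 to 1.42). Tcf7, a transcription factor of early innate lymphoid cells, was at 416, 327, 324 and 245 CPM in Pdcd1hu/+ and 607, 529.8, 316 and 383 in Pdcd1hu/-, a log2 fold change of 0.45 ± 0.21 (SE, 95% interval -0.01 to 0.92).

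The genes of the markers used to sort the cells did not separate. Ccr6, Kit and Il7r, which encode the sorting markers CCR6, c-Kit and CD127, had log2 fold changes of 0.57 ± 0.79 (SE, 95% interval -1.27 to 2.40), 0.20 ± 0.22 (SE, 95% interval -0.29 to 0.69) and 0.37 ± 0.26 (SE, 95% interval -0.20 to 0.94). The IL-23 receptor gene Il23r was at 332, 230.1, 495 and 179 CPM in Pdcd1hu/+ and 311, 199.9, 333.9 and 372 in Pdcd1hu/-, with a 95% interval of its log2 fold change from -0.71 to 0.64. Ligands by which LTi cells organise lymphoid tissue were picked after their values were seen. RANKL, encoded by Tnfsf11, had a log2 fold change of 0.18 ± 0.28 (SE, 95% interval -0.43 to 0.80), lymphotoxin alpha (Lta) of 0.53 ± 0.37 (SE, 95% interval -0.27 to 1.33) and lymphotoxin beta (Ltb) of 0.53 ± 0.55 (SE, 95% interval -0.70 to 1.75). Palld, an actin-binding protein, was at 849, 433, 109.5 and 64.1 CPM in Pdcd1hu/+ and 686, 487, 99.2 and 87.3 in Pdcd1hu/-, high in the PD-1high and low in the PD-1neg libraries of both genotypes, with a genotype difference of -0.01 ± 0.27 (SE, 95% interval -0.61 to 0.58).

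Effector cytokine transcripts did not differ between the genotypes beyond their spread. Il22 was at 39793, 7324, 10118 and 2725 CPM in Pdcd1hu/+ and 8451, 11661, 4672 and 7439 in Pdcd1hu/-. The highest library was Pdcd1hu/+ PD-1high replicate 1 and the lowest Pdcd1hu/+ PD-1neg replicate 2, with all Pdcd1hu/- libraries between them, and the log2 fold change was -0.66 ± 0.71 (SE). Its 95% interval ran from -2.41 to 1.099, which includes a difference of 1 in either direction. Il17f was highest in the same library, at 3965, 381, 791 and 321 CPM in Pdcd1hu/+ and 440.1, 937, 635 and 852 in Pdcd1hu/-. Il17a was at 264, 42.002, 17.4 and 199 CPM in Pdcd1hu/+ and 6.23, 78.5, 135 and 390.3 in Pdcd1hu/-, with values scattered in both genotypes. Csf2, the gene of GM-CSF, was at 7.16, 7.19, 7.15 and 52.3 CPM in Pdcd1hu/+ and 0, 25.5, 123 and 9.52 in Pdcd1hu/-, a log2 fold change of 0.99 ± 1.56 (SE, 95% interval -2.74 to 4.73). Of 13 cytokine genes tested, 6 lay above 0, and 0 were higher and 2 lower at p under 0.05. These were Ifng, from low counts, and Il10, with most of its counts in 1 library. Leaving out 1 library gave 4 to 9 above 0 and medians from -0.29 to 0.39. Ifng was at 2.25, 0.741, 9.22 and 0 CPM in Pdcd1hu/+ and at 0 in all Pdcd1hu/- libraries. For counting error only it was at least 75.1-fold lower, or at least 23.4-fold without Pdcd1hu/+ PD-1neg replicate 1, which held most of its counts. With the spread between libraries, edgeR's 95% interval of its log2 fold change ran from -15.7 to -1.82. Il10 was above 2 CPM in 1 library alone, Pdcd1hu/+ PD-1high replicate 2, at 46.1 CPM.

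Most metabolic genes had overlapping libraries. Cpt1a, the carnitine palmitoyltransferase that admits fatty acids to mitochondria, was at 25.5, 53.9, 26.2 and 41.2 CPM in Pdcd1hu/+ and 25.9, 34.95, 25.97 and 38.6 in Pdcd1hu/-. Pdcd1hu/+ reached higher, but the libraries overlapped, with a log2 fold change of -0.22 ± 0.42 (SE, 95% interval -1.15 to 0.70). Of 29 fatty acid oxidation genes 17 lay above 0 and 0 had p under 0.05, with a median of 0.13 (14 to 22 above 0 and medians from -0.03 to 0.25 leaving out 1 library). Of 18 lipid uptake and droplet genes 10 lay above 0 and 0 had p under 0.05 (8 to 13 above 0 and medians from -0.11 to 0.45 leaving out 1 library). Acaa2, the last enzyme of the oxidation cycle, was at 44.6, 45.1, 79.4 and 61.4 CPM in Pdcd1hu/+ and 22.9, 32.1, 135 and 138 in Pdcd1hu/-. It was lower in both PD-1high libraries of Pdcd1hu/- and higher in both PD-1neg ones, and the difference between the gates was -1.66 ± 0.59 (SE, edgeR's adjusted p = 1).

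In glycolysis, 15 of 23 genes lay above 0 and 1, Ldhb, was higher at p under 0.05, with a median of 0.32. Leaving out 1 library gave 13 to 17 above 0 and medians from 0.16 to 0.53, with 0 higher at p under 0.05 without Pdcd1hu/+ PD-1neg replicate 1 and 5 without Pdcd1hu/- PD-1high replicate 1. Ldhb, a lactate dehydrogenase subunit, was at 60.7, 79.4, 49.6 and 39.4 CPM in Pdcd1hu/+ and 77.2, 77.9, 111 and 162 in Pdcd1hu/-, a log2 fold change of 1.62 in PD-1neg cells against 0.15 in PD-1high cells (the difference had edgeR's adjusted p = 1). Ldha had a log2 fold change of 0.27 ± 0.31 (SE, 95% interval -0.42 to 0.95). Hk2, a hexokinase, was at 202, 231, 1029.6 and 212 CPM in Pdcd1hu/+ and 183, 228, 355 and 421 in Pdcd1hu/-, with 1 Pdcd1hu/+ library far above the rest. The glucose transporter gene Slc2a1 was at 25.3, 88.1, 4.56 and 134 CPM in Pdcd1hu/+ and 71.4, 17.6, 36.01 and 30.6 in Pdcd1hu/-. Of 23 tricarboxylic acid cycle genes 17 lay above 0, 0 at p under 0.05, with a median of 0.19 (15 to 20 above 0 and medians from 0.11 to 0.29 leaving out 1 library), and citrate synthase (Cs) had the smallest p, with a log2 fold change of 0.60 ± 0.28 (SE, 95% interval -0.01 to 1.22). Of 49 nuclear respiratory chain genes 32 lay above 0 and 1 had p under 0.05, Ndufa9, with a median of 0.07. Without Pdcd1hu/- PD-1high replicate 2 or PD-1neg replicate 1 this count was 21 or 22 and the median -0.03 or -0.05, and with RLE size factors 26 lay above 0. Of 13 mitochondrially encoded genes 12 lay below 0, none at p under 0.05, with a median of -0.52. Their share of counts was 6.60, 2.06, 3.24 and 2.37% in Pdcd1hu/+ and 4.67, 1.91, 2.73 and 1.21% in Pdcd1hu/-, and without Pdcd1hu/+ PD-1high replicate 1, the highest, the median was -0.02. Of 20 sterol and fatty acid synthesis genes 10 lay above 0 (7 to 13 above 0 and medians from -0.39 to 0.24 leaving out 1 library), with Scd2, a fatty acid desaturase, the nearest to a difference at 41.5, 68.9, 30.1 and 62.4 CPM in Pdcd1hu/+ and 16.5, 5.83, 54.2 and 13.7 in Pdcd1hu/-.

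**Figure D4:**
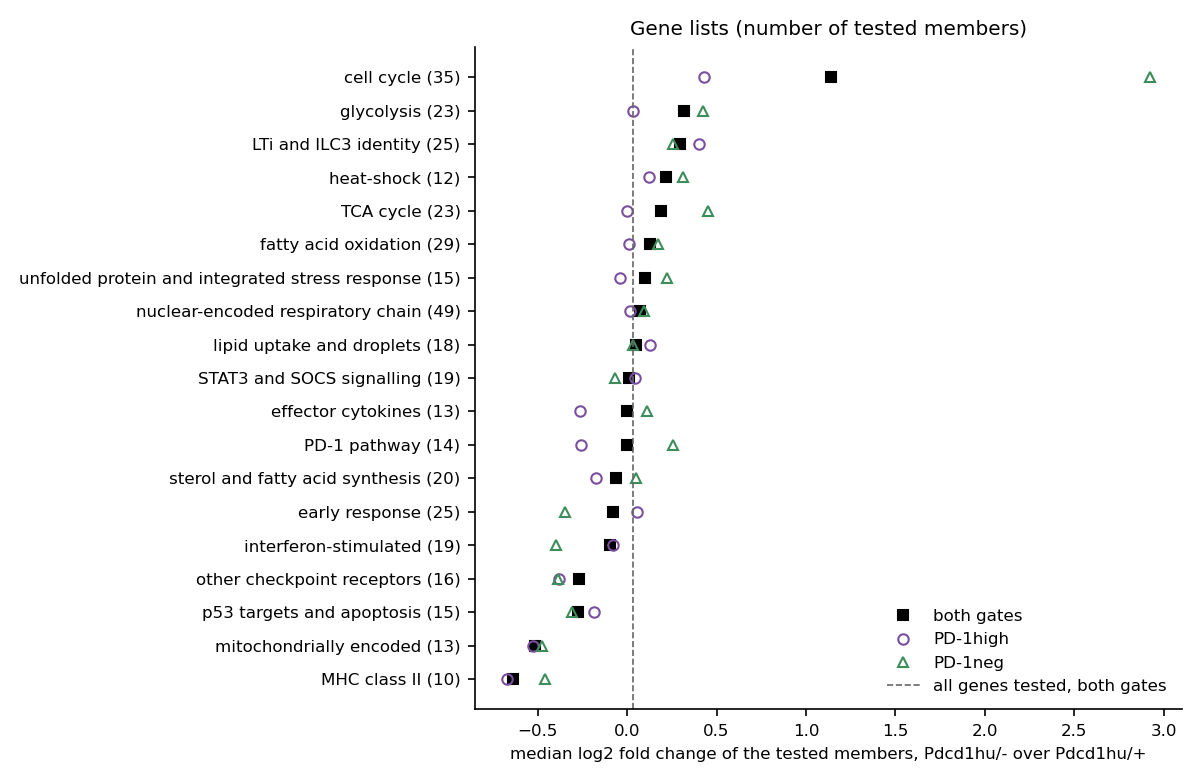
Median log2 fold change of the tested members of 19 gene lists (x axis, Pdcd1hu/- over Pdcd1hu/+), with squares for both gates, circles for PD-1high, triangles for PD-1neg and a dashed line at the median of all genes. The cell cycle list lay at 1.14 through 1 library, and MHC class II and mitochondrially encoded genes lay lowest.

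MHC class II genes all lay below 0. Of 10 listed genes 0 lay above 0 and 1 was lower at p under 0.05, with a median of -0.64. That gene was H2-DMa, which loads peptides onto class II molecules, at 189, 121, 243 and 137 CPM in Pdcd1hu/+ and 56.99, 78.4, 109 and 146 in Pdcd1hu/-, with overlapping libraries and a log2 fold change of -0.89 ± 0.30 (SE, 95% interval -1.54 to -0.24). The shares of counts were 0.436, 0.341, 1.15 and 0.266% in Pdcd1hu/+ and 0.288, 0.284, 0.406 and 0.790% in Pdcd1hu/-. Without Pdcd1hu/+ PD-1neg replicate 1, the highest, 5 of 10 lay above 0 and the median was -0.04. Myeloid markers, given above, were lower in the same direction, and their part was not tested.

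Activation and stress genes were mixed in direction. Of 25 early response genes 8 lay above 0 and 2 were lower at p under 0.05, with a median of -0.08 (5 to 11 above 0 and medians from -0.25 to -0.05 leaving out 1 library). Nfkbia, the inhibitor that NF-κB induces, was at 1819, 2178, 2838 and 2927 CPM in Pdcd1hu/+ and 1296, 1804, 1486 and 1990.4 in Pdcd1hu/-. Of the Pdcd1hu/- libraries only PD-1neg replicate 2 reached into the range of Pdcd1hu/+, and the log2 fold change was -0.55 ± 0.19 (SE, 95% interval -0.97 to -0.13). Zfp36, which speeds the decay of cytokine mRNA, was at 1234, 1345, 4972 and 2754 CPM in Pdcd1hu/+ and 1189, 1333, 1214 and 2019 in Pdcd1hu/-, a log2 fold change of -1.26 in PD-1neg cells against -0.03 in PD-1high cells (the difference had edgeR's adjusted p = 1). Hsp90ab1, a chaperone, was at 608, 556, 651 and 865 CPM in Pdcd1hu/+ and 591, 832, 1307 and 1351 in Pdcd1hu/-, the 1 gene of 12 heat-shock genes at p under 0.05, of which 8 lay above 0 (7 to 10 above 0 and medians from 0.18 to 0.34 leaving out 1 library). Of 19 interferon-stimulated genes 3 were lower at p under 0.05, Rsad2, Ifit2 and Oas2, none of them above 18.7 CPM in any library, and 8 of the 19 lay above 0, with a median of -0.10. Leaving out 1 library gave 6 to 10 above 0 and medians from -0.45 to 0.11, and 0 were lower at p under 0.05 without Pdcd1hu/+ PD-1high replicate 2 or either PD-1neg replicate of Pdcd1hu/-. Rsad2, an antiviral enzyme, was at 15.98, 18.7, 12.3 and 5.55 CPM in Pdcd1hu/+ and 6.05, 2.40, 0.926 and 0.563 in Pdcd1hu/-. Of 15 p53 target and apoptosis genes 7 lay above 0 (5 to 7 above 0 and medians from -0.49 to -0.00024 leaving out 1 library) and 1, the death receptor gene Fas, was lower at p under 0.05, at 56.9, 49.8, 1.25 and 65.1 CPM in Pdcd1hu/+ and 8.22, 23.2, 8.48 and 3.83 in Pdcd1hu/-. Of 15 unfolded protein and stress response genes 10 lay above 0 and 0 had p under 0.05 (8 to 11 above 0 and medians from 0.02 to 0.15 leaving out 1 library).

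Both gates were then compared. With 4 group means, edgeR called 0 genes (0%) in PD-1high cells, 0 in PD-1neg cells and 0 for their difference, and limma-voom called 0 in each as well. At an unadjusted p under 0.05 in edgeR there were 362 genes in PD-1high cells (1.92% of all, 0.875% higher and 1.04% lower), 617 in PD-1neg cells (3.27%, 1.87% and 1.4%) and 709 for the difference (3.76%, 1.59% and 2.17%). DESeq2 called 100 genes in PD-1high cells (0.167% higher and 0.408% lower), 156 in PD-1neg cells (0.374% and 0.583%) and 108 for the difference (0.288% and 0.346%). Of the 362 and 617 genes, 39 were shared, which is 10.8% of the first and 6.32% of the second, and 26 of them had the same direction, 9 higher and 17 lower. Of all genes tested, 51.6% had the same direction in both gates. Over 9114 genes with a mean of at least 10 CPM the fold changes in both gates had a correlation of 0.083, given as a description across genes. Among the 26 were Socs2, Ccrl2, Lilr4b, Gpr137b, Scimp, Rfc5, Plk1, Rgs12, Laptm4b, Pi4k2a and Srpr. These were named for a small p over both gates, so that choice largely fixed their agreement between the gates. The genes with the smallest p for a difference between the gates had fitted fold changes of opposite sign. They were chosen for that difference, so the choice largely fixed this. Of those given here, Cdc27 alone had p under 0.05 in both gates, and the others had it in PD-1neg cells alone. Cdc27, a subunit of the anaphase-promoting complex, was at 34.96, 27.3, 83.6 and 62.1 CPM in Pdcd1hu/+ and 101, 94.2, 20.3 and 18.1 in Pdcd1hu/-. It was higher in Pdcd1hu/- among PD-1high cells and lower among PD-1neg cells, a difference of 3.57 ± 0.66 (SE, edgeR's adjusted p = 1). Rrm1, a subunit of ribonucleotide reductase, was at 53.2, 44.4, 15.9 and 15.8 CPM in Pdcd1hu/+ and 22.4, 34.5, 177 and 63.5 in Pdcd1hu/-, a difference of -3.70 ± 0.81 (SE, edgeR's adjusted p = 1). Thbs2, a matrix glycoprotein, was at 42.2, 55.1, 0 and 0.117 CPM in Pdcd1hu/+ and 11.04, 31.2, 13.7 and 8.95 in Pdcd1hu/-, and Snapc2, a subunit of the small nuclear RNA activating complex, at 29.4, 10.5, 4.80 and 3.45 CPM in Pdcd1hu/+ and 10.3, 11.02, 51.9 and 63.5 in Pdcd1hu/-. Nxpe2 was at 5.02, 5.71, 13.97 and 5.61 CPM in Pdcd1hu/+ and 38.89, 7.58, 0 and 0 in Pdcd1hu/- and Mfsd4b4 at 13.2, 6.80, 5.62 and 6.49 CPM in Pdcd1hu/+ and 40.8, 7.63, 0 and 0 in Pdcd1hu/-, both at 0 in the PD-1neg libraries of Pdcd1hu/- only. None of these passed adjustment.

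**Figure D5:**
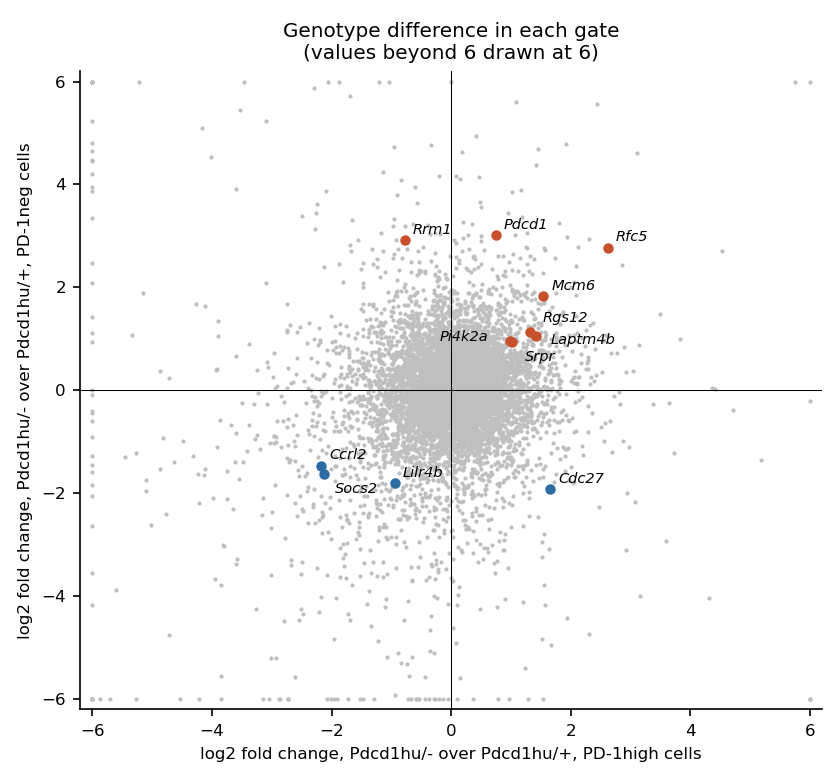
Log2 fold change of Pdcd1hu/- over Pdcd1hu/+ in PD-1high cells (x axis) and in PD-1neg cells (y axis) for the 9114 genes with a mean of at least 10 CPM (gray points, values beyond 6 drawn at 6 or -6), with some genes named, red where the fold change over both gates lay above 0 and blue where below. Rfc5 and Socs2 lay in the same direction in both gates, Cdc27 and Rrm1 in opposite ones, and the cloud of all genes showed little relation.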

How the data were processed

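RNA of colonic LTi cells was amplified with a SMART-Seq HT kit and sequenced in read pairs, per the labels' protocols. The deposited files hold raw read counts per gene. HISAT2 2.1.0 (an aligner), featureCounts and the build mm10 are named for them in the submitters' processing notes. Whether reads were counted by strand is not given in the sources used here, so reads from overlapping or antisense genes cannot be told apart. Of 55573 genes, 54353 took symbols from the series' other tables, 1041 from the reference and 179 had none. Groups follow the sample titles.

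Counts were tested with edgeR 4.0.16 in R 4.3.3 after TMM scaling and filterByExpr, with a quasi-likelihood fit of gate and genotype (5 residual degrees of freedom) and Benjamini-Hochberg adjustment over all genes tested. Gates and their difference were tested in a fit of 4 group means (4 residual degrees of freedom). Standard errors and 95% intervals were derived from the fitted fold change and its F statistic. The script was tested on simulated data with 200 changed genes and a spread set low enough for the changes to be seen. That checks the sign and contrast of the fit and not what could be detected in these data. DESeq2 1.42.0 and limma 3.58.1 were alternatives, beside other scalings, filters, designs and leaving out each library. Depth of 16479396 to 22290026 counts and the spread between replicates set the precision.

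The members and gene lists were chosen with earlier results of these data known. Genes named are the 10 higher and 10 lower of smallest p with a mean CPM of at least 5, leaving out receptor segments and predicted genes, the 5 of widest gap between genotypes in each direction at a mean CPM of at least 10, the 3 of smallest p in each pathway list and the 1 of smallest p and the most abundant in each marker list, a panel of known genes, the 3 of smallest p for the gate difference in each direction, and those said to be picked after their values were seen. Of the list genes, those a result turns on are described. Some genes that the rule names are not reported here. RefSeq promoter sequences (GRCm38.p6) were searched for letters on both strands.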

Additional observations from a re-analysis of the deposited data

Results flagged for a closer look

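In several genes 1 library stood apart from the other 3 of its genotype, by a gap in log2 CPM above Dixon's critical value for 4 values. Chance alone gives such a gap in about 1 of 20 groups, and many genes were tested. Pdcd1hu/+ PD-1neg replicate 1 accounted for 6 of the 11 cases. It was high for Hk2, at 1029.6 CPM against 202 to 231 in the others of its genotype, for Laptm4b, at 99.8 CPM against 40.7 to 46.5, and for Nxpe2, at 13.97 CPM against 5.02 to 5.71. It was low for Fas, at 1.25 CPM against 49.8 to 65.1, for Ptpn11, at 10.04 CPM against 29.7 to 35.4, and for the matrix proteoglycan gene Bgn, at 6.96 CPM against 135 to 208. Pdcd1hu/+ PD-1neg replicate 2 was high for Csf2, at 52.3 CPM against 7.15 to 7.19.

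Among Pdcd1hu/- libraries, PD-1neg replicate 2 was high for Laptm4b, at 194 CPM against 111 to 117. PD-1high replicate 1 was high for Mlycd, at 48.8 CPM against 15.4 to 16.2, and low for Gtf2h3, at 24.9 CPM against 37.7 to 39.8. PD-1high replicate 2 held Ackr1 at 1.04 CPM, with the others at 0. The sources of these single values were not tested.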

How the results depend on the processing

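The count of 0 genes at an adjusted p under 0.05 over both gates held with RLE size factors, library totals, a mean CPM of at least 10, limma-voom with and without duplicateCorrelation, no gate covariate, 4 averaged group means, gates summed, immunoglobulin genes removed and the replicate block. It was 36 without a filter on low counts, 61 with DESeq2 and 2 with Igkc as a covariate, both immunoglobulin segments. In PD-1high cells it was 5 without a filter and 100 with DESeq2, in PD-1neg cells 45 and 156, and for the difference between the gates 15 and 108. The cause was not tested. Leaving out 1 library at a time gave 0 to 1 gene over both gates (Lum, without either Pdcd1hu/+ PD-1neg replicate), 0 to 1 in PD-1neg cells (Lgals4, without Pdcd1hu/+ PD-1neg replicate 1) and 0 in PD-1high cells and for the difference. Where a gate keeps 1 library of a genotype, that library is assumed to vary like the other groups. Of 92 named genes, 66 kept their direction in every alternative, among them Socs2, Socs3, Ccrl2, Lilr4b, Rfc5, Mcm6, Srpr, Pi4k2a, Rgs12, Cxcr5 and Pdcd1. Genes named for a small p or a wide gap in these same libraries could hardly change direction, so this is no separate support. The same share was not counted over all genes tested.

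Replicate numbers are shared between the groups. Over 10947 genes the correlation of same-numbered libraries' deviations was 0.112 between both Pdcd1hu/+ gates and 0.232 between both Pdcd1hu/- gates, which could share mice, and -0.386 to -0.068 between genotypes, so the numbers were not taken to pair libraries across genotypes. Gates summed and duplicateCorrelation allow for libraries of 1 genotype and number sharing mice, and both gave 0 genes. With the replicate block edgeR called 0 genes in each comparison, and the log2 fold change changed sign for Il23r (0.037), Palld (0.042) and Socs1 (0.28).

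Other sign changes were at log2 fold changes whose interval included 0. With limma-voom they were Cdc27 (0.15), Thbs2 (-0.39), Il17a (0.58), Il23r (0.037), Mki67 (0.56) and Socs1 (0.19), and with duplicateCorrelation the same genes (0.15, -0.41, 0.59, 0.037, 0.57 and 0.19). Without the gate covariate they were Cdc27 (0.17), Nxpe2 (0.62), Mfsd4b4 (0.59), Thbs2 (-0.59), Il17a (0.22) and Mki67 (0.37), and with gates summed the same genes (0.11, 0.43, 0.45, -0.69, 0.32 and 0.42). With Igkc as a covariate they were Il17a (0.091) and Csf2 (-0.22), and with library totals Il23r (0.031), Palld (0.064) and Socs1 (0.019). Leaving out 1 library at a time, the fold change ran from -0.83 to 0.53 for Cdc27, -6.99 to 0.53 for Nxpe2, -0.13 to 1.99 for Il2, -0.049 to 2.60 for Slc16a1, -0.23 to 2.14 for Areg, -0.18 to 0.40 for Ptpn11, -1.04 to 0.13 for Il22, -1.05 to 0.75 for Il17a, -1.08 to 0.59 for Il17f, -0.37 to 1.66 for Csf2, -0.028 to 1.08 for Ccr6 and -0.28 to 0.28 for Il23r. It ran from -0.38 to 0.045 for Cpt1a, -0.15 to 0.42 for Acaa2, -0.63 to 0.29 for Hk2, -1.30 to 0.70 for Slc2a1, -0.17 to 0.24 for Palld, -0.016 to 0.52 for Tnfsf11, -0.030 to 0.96 for Ltb, -0.86 to 2.08 for Top2a, -2.85 to 0.27 for Mki67, -0.46 to 0.62 for Socs1, -0.036 to 0.58 for Cish and -0.44 to 0.91 for Mcm7. The median of the mast cell markers was -1.77 and became 1.18 without a filter, since more of them were then tested, and that of the erythroid markers went from -1.61 to 1.84 with limma-voom and 1.85 with duplicateCorrelation. At 4 libraries a genotype and this spread, most genes' intervals reach beyond 1 on the log2 scale.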
